A study of Rattus norvegicus with 20 samples.

Results

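Matrix metalloproteinases and their tissue inhibitors were followed in inguinal white adipose tissue (iWAT), a subcutaneous fat depot, of male ZSF1 rats. The set was drawn up by gene name, with earlier results of these data known, and holds 10 genes of the 32545 in the count table. They are the 6 metalloproteinase genes Mmp2, Mmp3, Mmp9, Mmp12, Mmp14 and Mmp19 and the 4 inhibitor genes Timp1, Timp2, Timp3 and Timp4. All 10 passed the filter on low counts. RNA was sequenced from 5 rats in each of 4 groups. Obese rats were homozygous for leptin receptor deficiency, carrying the fa and cp mutations of Lepr, and Lean rats were F1 animals of the same cross that were not. Cmpd 1 rats were obese and ate chow containing Cmpd 1, an inhibitor of the protein kinases C alpha and beta. Food matched rats were obese and received restricted food, set each week by what the Cmpd 1 group had eaten the week before. All groups ate the same Purina chow in a 10-week study that ended at about 32 weeks of age. The receptor defect is germline, so every cell type carries it. Food matched samples carry lean as their phenotype in the labels, which goes against their titles and the study's methods, and they were taken as obese.

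Matrix metalloproteinases are zinc enzymes that cut collagens, elastin, proteoglycans and many signalling proteins outside the cell. Most are secreted as inactive proenzymes that other proteases switch on, and the TIMP proteins block the active site of the mature enzymes. In expanding fat they take part in remodelling the collagen mesh around adipocytes and the vessels between them, and macrophages of adipose tissue are a known source of several of them.

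Each library held 31716457 to 74784655 reads counted in genes, and the shallowest, Cmpd 1 rat 4, still gave 428 reads to Mmp12. Levels are CPM, counts relative to a library size scaled by TMM, a correction for composition, and levels of different genes are set side by side only per kilobase (RPKM). A gene was called differentially expressed (DEG) where its level differed by more than 1.5-fold at a Benjamini-Hochberg adjusted p below 0.05, from the quasi-likelihood test of edgeR over 17653 genes. Lepr lay between 2.95 and 11.99 CPM in Lean rats and between 1.24 and 2.32 CPM in the 15 obese rats. Acta1, the actin of skeletal muscle, stood at 721 and 1232 CPM in Lean rats 1 and 2 and at 20.7 CPM in Food matched rat 5. Apob, a lipoprotein gene, stood at 36.2 CPM in Lean rat 5, and Scgb2a1, a gland secretoglobin, at 37.9 CPM in Obese rat 4. Without these 5 libraries no call of Mmp12, Mmp9, Mmp19 or Timp1 was lost. Their differences from Lean rats were smaller and Mmp12 was called in further contrasts, as given below for Mmp12 and Mmp9. Of the Lean group only rats 3 and 4 were then left, which had the highest Mmp12, Mmp9 and Mmp19 levels of that group. The part of the other tissues in the smaller differences was not tested.

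The genes that rose in Obese rats were not the most abundant ones. In Lean rats Mmp2, gelatinase A, led the metalloproteinases at 190 ± 32.2 RPKM (SD, n = 5 rats), followed by Mmp14, the membrane-bound enzyme that activates gelatinase A, at 88.7 ± 9.66 RPKM. Mmp19, a secreted enzyme that cuts basement membrane proteins, was at 19.9 ± 4.20 RPKM, and the other 3 were at most 1.03 RPKM in every Lean rat. Mmp2, Mmp14 and Mmp19 together therefore made up nearly all of the summed level of the 6 metalloproteinase members in Lean fat. Outside the set, Mmp23 at 55.9 RPKM and Mmp15 at 24.5 RPKM stood above Mmp19 in the mean of Lean rats. Among inhibitors, Timp2 at 233 ± 18.6 RPKM and Timp3 at 203 ± 26.2 RPKM overlapped in Lean rats, and Timp4 at 52.5 ± 7.75 RPKM overlapped with Timp1 at 49.8 ± 9.02 RPKM.

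**Figure D1:**
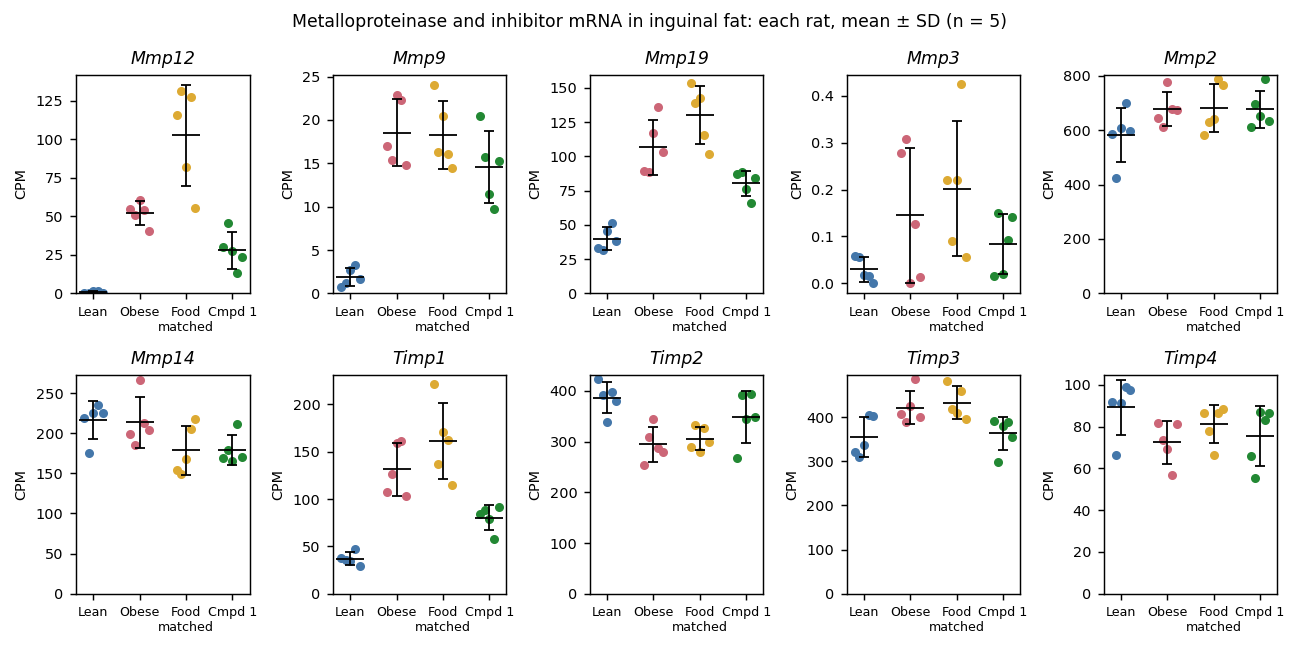
CPM of each of the 10 members in each rat (points) with the group mean and SD (black bars, n = 5), every panel on its own linear axis. Mmp12, Mmp9, Mmp19 and Timp1 are higher in every Obese rat than in every Lean rat, while Mmp2, Mmp14 and Timp4 overlap between those groups.

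In Obese versus Lean animals 4 of the 10 members rose and 0 fell. Across all genes tested, 11.3% were DEGs in the higher direction and 11.0% in the lower direction. The 4 were Mmp12, Mmp9, Mmp19 and Timp1, that is 3 of 6 metalloproteinases and 1 of 4 inhibitors, and for each of them every Obese rat was above every Lean rat. The share of all genes without overlap between groups was not determined for any contrast. Missing overlap is therefore given only as a description of the values. The median log2 fold change of the 10 members was 0.84, beside −0.014 for all genes tested.

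Mmp12, macrophage elastase, had the largest difference of the members. It was at 0.196, 0.495, 1.51, 1.60 and 0.520 CPM in Lean rats 1 to 5 and at 54.6, 50.7, 60.8, 54.2 and 40.4 CPM in Obese rats 1 to 5. Lean rats therefore gave 10 to 95 reads and Obese rats 2747 to 3736. The log2 fold change was 5.92 (standard error 0.41, 95% interval 5.07 to 6.78, edgeR adjusted p = 9.6e-10), a 60.7-fold difference. Without the 5 libraries with transcripts of other tissues it was 5.06 (edgeR adjusted p = 6.3e-07). In the rn6 assembly of the count table Mmp12 lies on the plus strand of chromosome 8 from 5606592 to 5616493, upstream of Mmp3, stromelysin 1, at 5676665 to 5698579.

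RefSeq windows around the start site, from 250 bases before it to 50 after, were given for 6 of the 10 members: Mmp3, Mmp12, Timp1, Timp2, Timp3 and Timp4. The last 120 bases before the start site are shown for the neighbours Mmp12 and Mmp3, of which Mmp12 carried the largest change, and for Timp1, the inhibitor that moved with Mmp12. Capitals mark the AP-1 letters TGANTCA, which read alike on both strands, and the TATA letters TATAAA, searched on both strands. All 3 are from the GRCr8 build, which differs from that of the count table.
Mmp12, chr8:12866532-12866651, plus strand: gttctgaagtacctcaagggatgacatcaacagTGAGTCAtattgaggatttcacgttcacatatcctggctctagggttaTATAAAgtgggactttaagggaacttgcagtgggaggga
Mmp3, chr8:12925161-12925280, plus strand: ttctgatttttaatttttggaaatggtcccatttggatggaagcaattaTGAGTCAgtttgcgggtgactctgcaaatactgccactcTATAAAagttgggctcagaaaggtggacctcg
Timp1, chrX:3771123-3771242, minus strand: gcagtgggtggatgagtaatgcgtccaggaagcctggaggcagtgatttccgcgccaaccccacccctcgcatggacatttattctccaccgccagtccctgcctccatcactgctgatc
The AP-1 match began at base −87 from the start site in Mmp12 and at −71 in Mmp3, and the TATA match at −39 and −32. AP-1 letters occurred in 7.33% and TATA letters in 14.2% of the 33469 RefSeq windows of this length. Neither motif was found in the windows of the 4 Timp genes, which says only that these letters are not there. The motifs were picked after the expression values were known and are given as a description of the sequence.

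Mmp9, gelatinase B, is known from macrophages and neutrophils. It was at 0.724, 1.20, 2.64, 3.24 and 1.61 CPM in Lean rats 1 to 5 and at 17.0, 15.4, 22.9, 22.3 and 14.8 CPM in Obese rats 1 to 5. The groups did not overlap, with a log2 fold change of 3.30 (standard error 0.30, edgeR adjusted p = 1.7e-08), or 9.82-fold, and 2.58 without the 5 libraries (edgeR adjusted p = 4.5e-06). Mmp19 was at 33.0, 31.5, 45.5, 51.4 and 38.0 CPM in Lean and at 89.3, 88.4, 117, 136 and 103 CPM in Obese rats, again without overlap. Its log2 fold change was 1.42 (standard error 0.15, edgeR adjusted p = 1e-07), or 2.68-fold, and thus smaller in ratio than those of Mmp12 and Mmp9 but from a higher starting level.

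Timp1, the inducible inhibitor of the family, was the only inhibitor called in this contrast. It was at 37.5, 35.7, 35.0, 47.2 and 28.8 CPM in Lean rats 1 to 5 and at 108, 126, 159, 161 and 103 CPM in Obese rats 1 to 5. The lowest Obese rat lay well above the highest Lean rat. The log2 fold change was 1.83 (standard error 0.18, 95% interval 1.47 to 2.20, edgeR adjusted p = 3.8e-08), or 3.57-fold.

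The other 3 inhibitors changed little and not in the same direction. Timp2, which also takes part in the activation of gelatinase A, passed the adjusted p but not the fold threshold, with a log2 fold change of −0.39 (edgeR adjusted p = 0.0017). It was at 387 ± 30.8 CPM in Lean and 295 ± 34.0 CPM in Obese rats (SD, n = 5 rats), and 1 Obese rat, at 345 CPM, lay above the lowest Lean rat at 339 CPM. Timp3, an inhibitor bound to the extracellular matrix, was at 355 CPM in Lean and 422 CPM in Obese rats, a log2 difference of 0.25 (edgeR adjusted p = 0.026) that is also below the fold threshold. With any fold allowed, 23.7% of all genes were higher and 24.5% lower at an adjusted p under 0.05, so such small shifts were common. Timp4, an inhibitor with high levels in heart and fat, had a log2 fold change of −0.30 and an adjusted p of 0.064 (edgeR).

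Mmp2 and Mmp14 were not DEGs in any of the 6 contrasts among the 4 groups. Mmp2 was at 426 to 699 CPM in Lean, 613 to 778 in Obese, 584 to 787 in Food matched and 612 to 787 in Cmpd 1 rats. The log2 difference for Obese versus Lean was 0.21 (95% interval −0.014 to 0.44, edgeR adjusted p = 0.11), an interval that leaves out a 1.5-fold change. For Mmp14 it was −0.017 (95% interval −0.25 to 0.22, edgeR adjusted p = 0.92). Mmp14 was at 216 ± 23.5 CPM in Lean, 214 ± 31.4 in Obese, 179 ± 30.7 in Food matched and 179 ± 18.7 in Cmpd 1 rats (SD, n = 5 rats). Its Food matched versus Lean difference of −0.27 had an adjusted p of 0.048 (edgeR) and was below the fold threshold.

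Mmp3 was close to the limit of detection in every group. It gave 0 to 4 reads in Lean, 0 to 19 in Obese, 3 to 31 in Food matched and 1 to 9 in Cmpd 1 libraries, and the groups overlapped throughout. Food matched versus Lean was called, with a log2 fold change of 2.68 whose 95% interval ran from 0.82 to 4.72 (edgeR adjusted p = 0.017). That call was lost without Food matched rat 4, which holds the 31 reads (adjusted p = 0.061, edgeR), and without the 5 libraries named above (adjusted p = 0.055). Obese versus Lean, at 2.21 with an adjusted p of 0.055 (edgeR), was called under 4 of 29 alternatives: by DESeq2, without Lean rats 1 and 2, and without Obese rat 3 or Obese rat 5. Over the 29 its log2 value ran from 1.36 to 3.47 and its adjusted p from 0.02 to 0.32.

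Cmpd 1 versus Food matched animals compares rats on like amounts of food, with and without the inhibitor in it. Here 0 members were higher and 3 were lower with Cmpd 1, namely Mmp12, Timp1 and Mmp19, and the groups did not overlap for any of them. Over all genes 1.54% were called higher and 4.65% lower, and the share without overlap was not determined. The 3 members were also among the 4 that rose in Obese rats. The median log2 fold change over the members was −0.29, beside 0.006 for all genes.

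Mmp12 was at 116, 132, 81.7, 128 and 55.5 CPM in Food matched rats 1 to 5 and at 29.8, 45.5, 27.5, 13.1 and 23.4 CPM in Cmpd 1 rats 1 to 5. The highest Cmpd 1 rat thus lay below the lowest Food matched rat. The log2 fold change was −1.87 (standard error 0.31, 95% interval −2.52 to −1.22, edgeR adjusted p = 0.00036), a 3.66-fold lower level. All Cmpd 1 rats remained above every Lean rat, and Cmpd 1 versus Lean was still a 32.6-fold difference (log2 5.03, edgeR adjusted p = 1.8e-08).

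Timp1 was at 222, 137, 171, 163 and 114 CPM in Food matched rats 1 to 5 and at 84.3, 88.5, 79.1, 58.1 and 91.6 CPM in Cmpd 1 rats 1 to 5. The difference on the log2 scale was −1.01 (standard error 0.17, 95% interval −1.36 to −0.65, edgeR adjusted p = 0.00041). Mmp19 was at 154, 139, 143, 115 and 102 CPM in Food matched rats and at 86.8, 88.2, 75.9, 66.0 and 84.3 CPM with Cmpd 1, a log2 fold change of −0.70 (standard error 0.14, edgeR adjusted p = 0.0016). Both genes were lower in all Cmpd 1 rats than in any Food matched rat, and both stayed above every Lean rat.

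Mmp9 did not pass the test in this contrast. It was at 24.1, 16.3, 20.4, 16.1 and 14.4 CPM in rats of the Food matched group and at 20.5, 15.8, 11.5, 9.74 and 15.3 CPM in those given Cmpd 1. The groups overlapped, and the log2 difference was −0.32 (95% interval −0.86 to 0.22, edgeR adjusted p = 0.42). The interval holds both no change and a decrease of over 1.5-fold, and whether Mmp9 differs in this respect from Mmp12 was not tested. Timp3 was at 397 to 483 CPM in Food matched rats and 299 to 391 CPM with Cmpd 1, without overlap, a log2 difference of −0.26 (edgeR adjusted p = 0.044) below the fold threshold. At that adjusted p alone 11.4% of all genes were higher and 11.4% lower. For Timp2 the difference was 0.19 and for Timp4 −0.10, with adjusted p of 0.16 and 0.64 (edgeR).

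**Figure D2:**
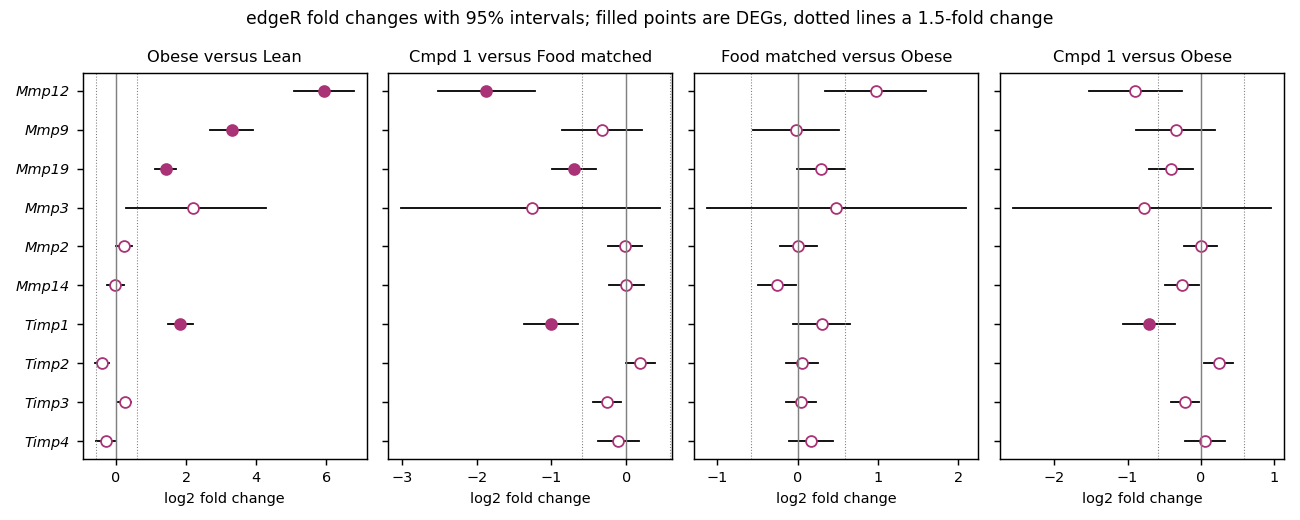
log2 fold changes of the 10 members in 4 contrasts with 95% intervals (lines), filled where the gene was a DEG, with dotted lines at a 1.5-fold change. Mmp12, Mmp19 and Timp1 are filled on the right in Obese versus Lean and on the left in Cmpd 1 versus Food matched, and Mmp9 is filled in Obese versus Lean alone of the 4.

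Food matched versus Obese animals compares restricted with free food. By the paper, intake of the Cmpd 1 group, which set the ration, was reduced at first and rose to near that of Obese rats by the end. The restriction was therefore weakest when the fat was taken. Here 0 of the 10 members were called by edgeR, limma-voom or DESeq2, and edgeR called 0% of all genes higher and 0% lower. Without adjustment 1887 genes had a p under 0.05, among them the 2 members Mmp12 and Mmp14. Mmp12 was higher than in every Obese rat in 4 of 5 Food matched rats, the exception being rat 5, for a log2 difference of 0.97 (95% interval 0.35 to 1.60, edgeR adjusted p = 0.21). Without the 5 libraries with transcripts of other tissues, which include Food matched rat 5 and Obese rat 4, it was a DEG at 1.14 (edgeR adjusted p = 0.018). The difference for Timp1 was 0.30 (95% interval −0.053 to 0.65) and for Mmp19 0.29 (95% interval −0.008 to 0.59).

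Cmpd 1 versus Obese animals differ in both the inhibitor and the food eaten over the study, although intake was near alike at its end. Timp1 alone of the members was called, with a log2 fold change of −0.71 (standard error 0.17, edgeR adjusted p = 0.0098), and all 5 Cmpd 1 rats lay below the lowest Obese rat. Of all genes, 0.731% were called higher and 2.80% lower. Mmp19 did not overlap either, at 66.0 to 88.2 CPM with Cmpd 1 against 88.4 to 136 CPM in Obese rats, but its difference of −0.41 had an adjusted p of 0.061 (edgeR). Mmp12, at −0.90, lay just outside the call with an adjusted p of 0.054 (edgeR). Over 30 alternatives its adjusted p ran from 0.02 to 0.14, and 11 of them called it. The value is −0.93 with an adjusted p of 0.02 by limma-voom, and −1.15 with an adjusted p of 0.021 by edgeR without Cmpd 1 rat 2, whose level of 45.5 CPM was the highest of its group. It is −0.91 with an adjusted p of 0.1 by DESeq2, which did not call it. By edgeR without Cmpd 1 rat 4, the lowest of its group, it is −0.72 with an adjusted p of 0.14, also not called.

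Set against Lean animals, both other obese groups showed the members that rose in Obese rats. In Cmpd 1 versus Lean animals 4 members were higher and 0 lower, where 7.47% of all genes were called higher and 9.11% lower. In Food matched versus Lean animals 5 were higher, the fifth being Mmp3, and 0 lower, where 12.5% were called higher and 12.8% lower. The contrasts share their Lean rats and are not independent of each other. For Mmp9 the 3 log2 fold changes against Lean were 3.30 in Obese, 3.28 in Food matched and 2.96 in Cmpd 1 rats, while for Mmp12 they were 5.92, 6.90 and 5.03. Without the 5 libraries with transcripts of other tissues those of Mmp12 were 5.06, 6.20 and 4.18, all still called, and that of Mmp9 in Cmpd 1 versus Lean animals was 2.32 (edgeR adjusted p = 2.4e-05). For Timp1 they were 1.83, 2.13 and 1.13, and for Mmp19 1.42, 1.71 and 1.01.

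The make-up of the set per kilobase shifted with the genes that moved. Mmp12 was 0.155 ± 0.102% (SD, n = 5 rats) of the summed RPKM of the 6 metalloproteinases in Lean, 7.36 ± 0.901% in Obese, 13.5 ± 4.18% in Food matched and 4.41 ± 1.77% in Cmpd 1 rats. The share of Mmp2 was 63.3 ± 1.41%, 55.7 ± 1.65%, 52.3 ± 4.40% and 62.2 ± 2.68% in the same order, so that Mmp2 held the largest share in every group. The share of Mmp14 was 29.8% in Lean and 17.3 to 22.1% in the obese groups. Among the inhibitors, Timp1 was 9.24 ± 1.38% of the summed level in Lean, 27.5 ± 3.18% in Obese, 30.9 ± 4.95% in Food matched and 19.1 ± 3.43% in Cmpd 1 rats, and Timp2 was 43.4%, 27.8%, 26.6% and 36.8%. Shares within a sum move against each other by construction.

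In Obese versus Lean animals the summed levels differed less in ratio than each of the 4 members called there. The 6 metalloproteinases together were at 300 ± 45.5 RPKM in Lean, 397 ± 42.8 in Obese, 424 ± 30.2 in Food matched and 354 ± 24.6 in Cmpd 1 rats (SD, n = 5 rats). The 4 inhibitors were at 538 ± 40.2, 639 ± 61.9, 698 ± 70.9 and 571 ± 22.3 RPKM. Their ratio was 1.82 ± 0.236 in Lean, 1.62 ± 0.109 in Obese, 1.66 ± 0.208 in Food matched and 1.62 ± 0.116 in Cmpd 1 rats, with overlap between all groups. The sums and the ratio leave out metalloproteinases outside the set, such as Mmp23 and Mmp15, at 55.9 and 24.5 RPKM in the mean of Lean rats. The sums count transcripts, not active enzyme.

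**Figure D3:**
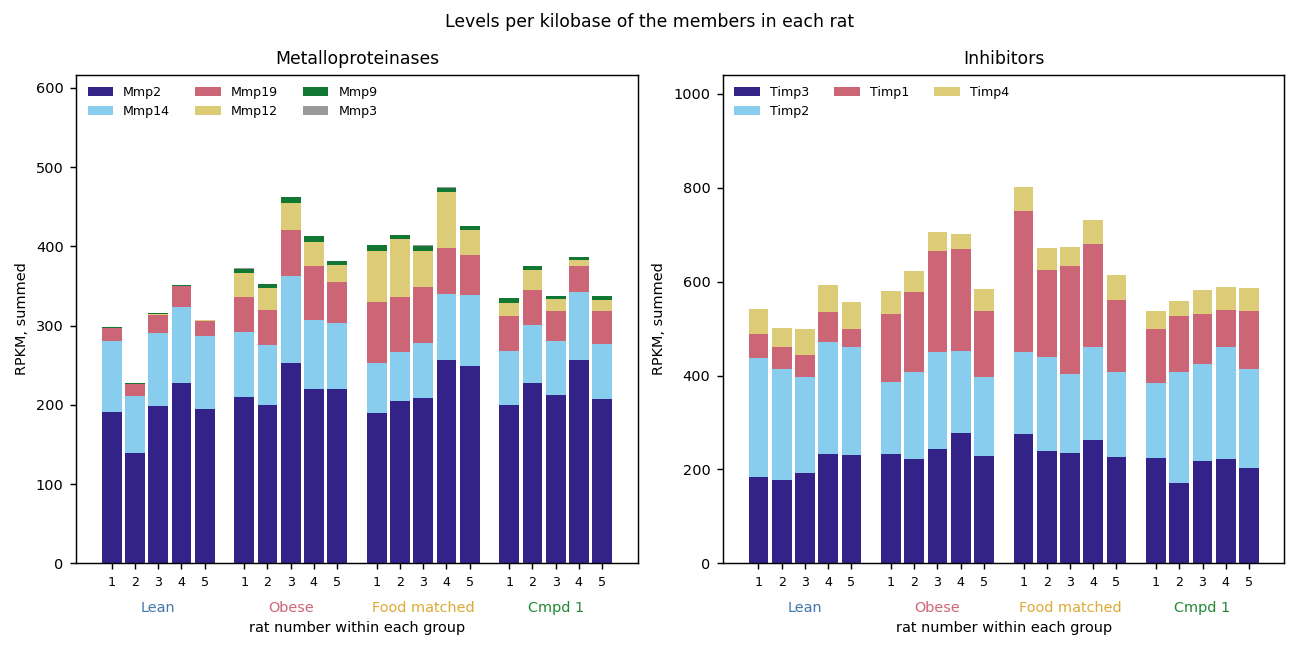
Summed RPKM of the 6 metalloproteinases (left) and 4 inhibitors (right) in each rat, stacked by gene. Mmp2 and Mmp14 fill most of the left bars in every rat, the Mmp12 segment is larger in 4 of the 5 Food matched rats than in any other rat, and the Timp1 segment is larger in every Obese rat than in every Lean rat.

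Most but not all markers of macrophages were higher in Obese rats. Of 12 markers, 7 were higher and 1, the scavenger receptor gene Cd163, was lower in Obese versus Lean animals, beside 11.3% and 11.0% of all genes. In Cmpd 1 versus Food matched animals 7 of the markers were lower, beside 4.65% of all genes. Cd14, a receptor for bacterial lipopolysaccharide, was at −0.43 in Obese versus Lean animals (edgeR adjusted p = 0.0039), below the fold threshold. The summed level of the 12 markers was 1852 to 2682 CPM in Lean, 6074 to 8371 in Obese, 6691 to 11684 in Food matched and 3945 to 5881 in Cmpd 1 rats, and all 12 were detected. Gpnmb and Lyz2 were the largest parts of this sum in every group, at means of 2902 and 2200 CPM in Obese rats. The sum therefore follows these genes more than the other markers. In bulk tissue fewer cells of a type and less RNA per cell cannot be told apart, and the part of macrophage content in the results for Mmp12, Mmp9, Mmp19 and Timp1 was not tested. Adgre1, the macrophage gene for F4/80, and Csf1r, the receptor for macrophage colony-stimulating factor, had log2 differences of 0.28 and 0.34 for Obese versus Lean and were not DEGs, whereas Itgax, the integrin gene for CD11c, was at 3.09.

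**Figure D4:**
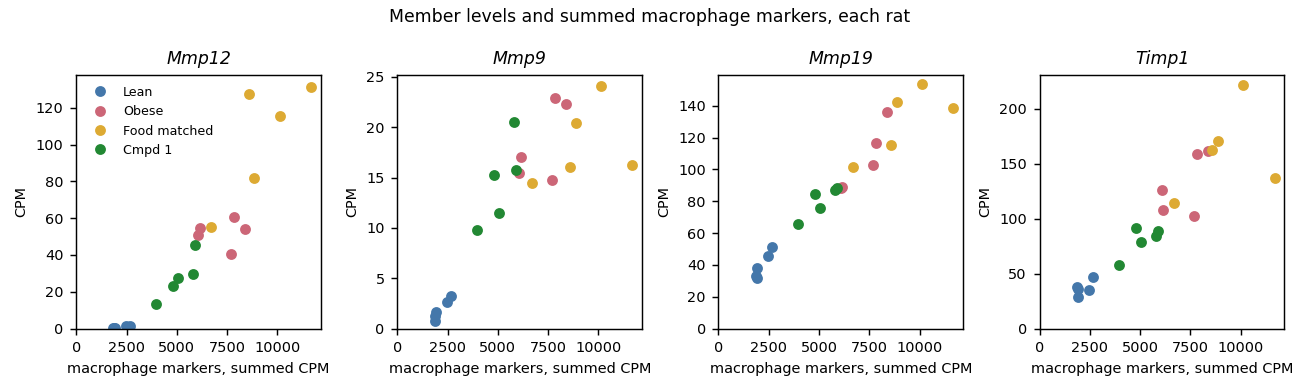
CPM of Mmp12, Mmp9, Mmp19 and Timp1 (vertical axes) against the summed CPM of 12 macrophage markers (horizontal axes) in each of the 20 rats, coloured by group. The largest parts of that sum are Gpnmb, which is also the gene most like Mmp12, and Lyz2. Lean rats sit at the lower left below a marker sum of 2682 and Cmpd 1 rats between 3945 and 5881, while Mmp9 of Cmpd 1 rats overlaps with that of Obese and Food matched rats.

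Markers of other cell types moved differently. The summed level of 6 neutrophil markers was 481 to 572 CPM in Lean and 89.3 to 155 CPM in the obese groups, and nearly all of it was Mpo, myeloperoxidase. Of the 6, 1 was higher and 2 were lower in Obese versus Lean animals, where 11.3% of all genes were called higher and 11.0% lower. The same shares apply to the counts of the other cell types in this contrast below. Csf3r, the receptor gene for granulocyte colony-stimulating factor, was higher at 0.60 (edgeR adjusted p = 0.003), and Mpo and Cxcr2 were lower at −1.96 and −1.94. S100a8 and S100a9 were at −0.024 and −0.525 and not called. Beside Mpo at 496.5 CPM, these 2 genes stood at 0.553 and 1.26 CPM in the mean of Lean rats. Elane, neutrophil elastase, was at 0.058 CPM in Lean and 0.028 CPM in Obese rats. Of 8 markers of fibroblasts and progenitors, a usual source of Mmp2 and Timp2, 2 were higher and 3 lower in Obese rats, with sums of 2587 to 3137 CPM in Lean and 1729 to 2106 CPM in Obese rats. Dpt was the largest part of these sums, at means of 2110 CPM in Lean and 1026 CPM in Obese rats. Lum and Thy1 were the markers called higher, and Dpt, Pi16 and Dpp4 those called lower. Adipocyte markers, 7 in all, gave 0 higher and 3 lower, with sums of 22626 to 27873 CPM in Lean and 18800 to 22259 CPM in Obese rats, high in every library as the tissue label requires. Of 5 endothelial markers measured 1 was lower, and of 6 mural cell markers 1 was lower. The 6 skeletal muscle markers were called lower in Obese rats, but Lean rats 1 and 2 carried this with sums of 2801 and 4848 CPM, while Lean rats 3 to 5 were at 18.5 to 21.0 CPM and Obese rats at 7.42 to 17.7 CPM. In Cmpd 1 versus Food matched animals 1 neutrophil marker was higher and 0 lower, and 0 fibroblast and progenitor markers were higher and 2 lower. Of the endothelial markers 1 was higher and 0 lower, and of the mural cell markers 1 was higher and 1 lower. Adipocyte and skeletal muscle markers gave 0 calls there. Over all genes that contrast called 1.54% higher and 4.65% lower. The part of these cell types in the members' values was not tested.

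The wider protease network was described with lists of genes chosen with earlier results known. Of 16 other metalloproteinase genes 15 were in the table and 10 were tested, and in Obese versus Lean animals 2 were higher and 2 lower. Of all genes, 11.3% were called higher and 11.0% lower there, and 1.54% higher and 4.65% lower in Cmpd 1 versus Food matched animals. Mmp7, matrilysin, rose from 0.130 to 0.728 CPM (log2 2.48, edgeR adjusted p = 0.00021) and was 1.74 CPM in Food matched rats and 0.556 CPM with Cmpd 1, the 1 gene of this list called with Cmpd 1 (log2 −1.64, edgeR adjusted p = 0.0075). Mmp27 fell from 2.01 to 0.344 CPM (log2 −2.54, edgeR adjusted p = 0.00012) and was 0.235 and 0.296 CPM in Food matched and Cmpd 1 rats. Mmp10, stromelysin 2, and Mmp16, a membrane-bound enzyme, were also called, higher at 3.55 and lower at −3.95 (edgeR adjusted p = 0.0069 and 0.0059), but their highest means were 0.0629 and 0.517 CPM and the groups overlapped. For Mmp16 a single Lean library at 2.22 CPM, with 157 reads, carried the Lean mean, and the Lean median was 0.0917 CPM. No reads were counted for Mmp1, Mmp11 and Mmp28.

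Relatives of the metalloproteinases showed both directions. Of 16 ADAM and ADAMTS genes 4 were higher and 1 lower in Obese versus Lean animals, where 11.3% of all genes were called higher and 11.0% lower. In Cmpd 1 versus Food matched animals 1 was higher and 2 lower, beside 1.54% and 4.65% of all genes. Adam8, an adhesion-linked protease of leukocytes, was at 5.78 CPM in Lean, 25.1 in Obese, 45.8 in Food matched and 14.0 in Cmpd 1 rats, with log2 fold changes of 2.12 and −1.71 (edgeR adjusted p = 2.7e-07 and 7.4e-05). Adam33 had the opposite pattern at 101, 41.3, 32.1 and 68.9 CPM, with −1.29 and 1.10 (edgeR adjusted p = 2.3e-06 and 0.00021). Adam12 was higher in Obese rats at 1.41 and Adam17, the sheddase of tumour necrosis factor, at 0.59, just past the fold threshold. Adamts4, an aggrecan-cutting enzyme, was lower with Cmpd 1 at −0.72 (edgeR adjusted p = 0.0039).

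Genes that activate or clear these proteases moved in both directions. Of the 14 described here, 1 was higher and 3 were lower in Obese versus Lean animals, beside 11.3% and 11.0% of all genes. With any fold allowed at an edgeR adjusted p under 0.05, 2 were higher and 7 lower, beside 23.7% and 24.5% of all genes. Plau, the urokinase gene, was lower in Obese rats at −1.17 while its receptor gene Plaur was higher at 0.84 (edgeR adjusted p = 5.3e-06 and 2.9e-06). Pcsk6, a proprotein convertase, was lower at −1.20 (edgeR adjusted p = 0.00096). Spock2, a matrix proteoglycan gene, was lower at −1.74 (edgeR adjusted p = 0.0053), with overlapping groups at means of 15.8 CPM in Lean and 4.73 CPM in Obese rats. In Cmpd 1 versus Food matched animals Plau, Pcsk6 and Spock2 had log2 differences of 0.25, 0.21 and 0.57 and Plaur of −0.37, and none of the 4 was a DEG.

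Genes of proteins that metalloproteinases cut made up the last list. Of 14 matrix genes 6 were higher and 1 lower in Obese versus Lean animals, where 11.3% of all genes were called higher and 11.0% lower. In Cmpd 1 versus Food matched animals 0 were higher and 4 lower, beside 1.54% and 4.65% of all genes. The 4 lower with Cmpd 1 were Spp1, osteopontin, at −1.57, Fn1, fibronectin, at −0.63, Col6a3, a collagen VI chain, at −0.61, and Bgn, biglycan, at −0.59, and all 4 were higher in Obese rats, at 3.27, 1.34, 1.21 and 1.39. Their adjusted p values lay between 0.00021 and 0.014 with Cmpd 1 (edgeR). Bgn lies at the fold threshold itself. Basement membrane genes such as Col4a1 (0.18) and Nid1 (0.092) were not DEGs in Obese versus Lean animals. Col1a2 was counted at under 0.05 CPM in the mean of every group while its partner chain Col1a1 stood at 1524 CPM in Lean rats, so the count of Col1a2 is taken as uncertain.

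**Figure D5:**
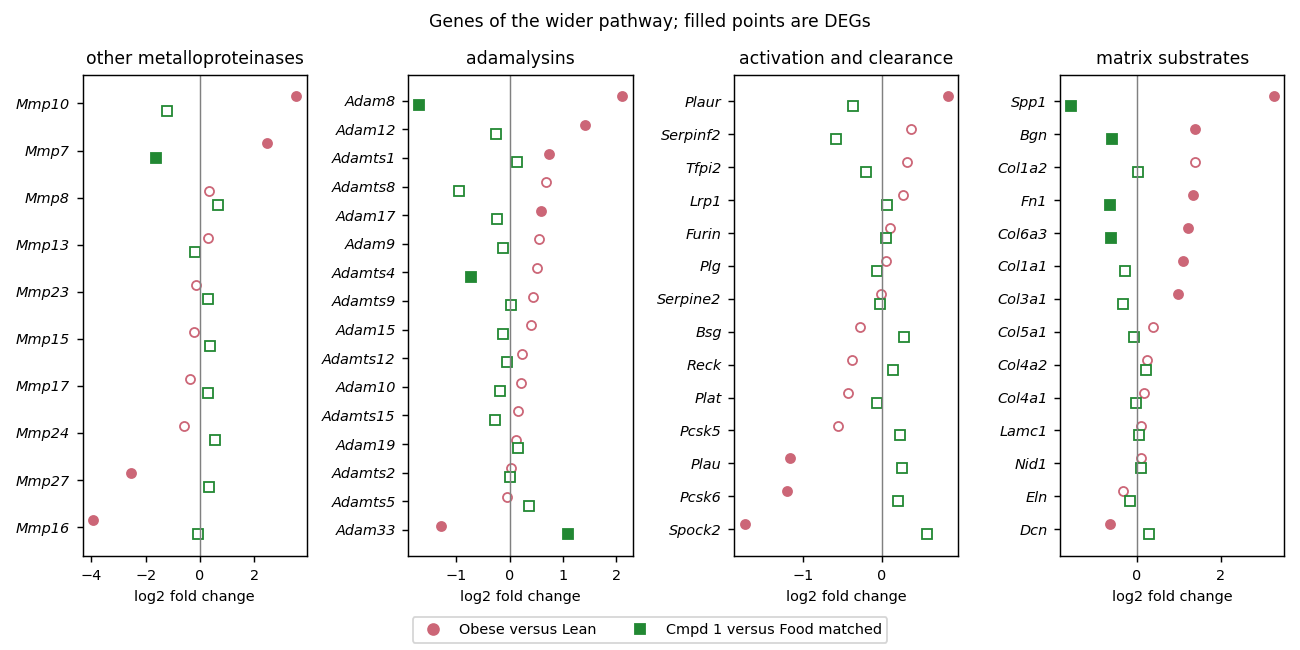
log2 fold changes of the genes of 4 lists around the members in Obese versus Lean (circles) and Cmpd 1 versus Food matched (squares), filled where a gene was a DEG. Mmp7, Adam8 and Spp1 are filled on the right as circles and on the left as squares, and Adam33 is filled the other way round.

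Of the 4 inhibitor genes, 3 lie within the span of a synapsin gene on the opposite strand: Timp1 within Syn1, Timp4 within Syn2 and Timp3 within Syn3. The libraries were stranded, but whether reads were counted by strand is not given in the sources used here. Syn1 was at 0.294 to 5.41 CPM over the 20 rats, against 28.8 to 222 CPM for Timp1, and was a DEG in Obese versus Lean animals (log2 2.28, edgeR adjusted p = 1.3e-06), but its difference in Cmpd 1 versus Food matched animals was −0.36 (edgeR adjusted p = 0.38). Syn3 lay at 0.161 to 0.822 CPM, against 299 to 487 CPM for Timp3, and was a DEG in the lower direction in Obese rats (log2 −0.95, edgeR adjusted p = 0.03). Syn2 lay at 0.499 to 1.80 CPM, against 55.3 to 98.9 CPM for Timp4, and was lower with Cmpd 1 (log2 −0.63, edgeR adjusted p = 0.044). Cep295nl overlaps Timp2 on the same strand and stayed at 1.04 CPM or less. All 4 overlapping genes were thus far below their Timp partner in counts, and levels of the synapsin genes are uncertain to the extent that reads are shared.

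The genes whose log2 CPM ran most like that of a member were sought among 12034 genes with a mean of at least 1 CPM. The coefficients are Pearson's r over the same 20 libraries, they are carried in large part by the differences between groups, and they are a description only. For Mmp12 the closest were Gpnmb, a glycoprotein gene of lipid-laden macrophages, at 0.992, and Clec5a, Pla2g7, Atp1b1 and Slamf6 at 0.989 to 0.991. For Timp1 they were Bcat1 and Clic1 at 0.982, Ociad2 at 0.979, and Tpm3 and Mcm6 at 0.977. Mmp14 ran less closely with any gene, led by Lilrb3 at 0.791, and Timp4 ran with Pkp4 at 0.906, Kank3 at 0.863, Adgrg1 at 0.822 and the endothelial receptor genes S1pr1 at 0.776 and Flt1 at 0.763. Among the members themselves, r was 0.898 to 0.972 between Mmp9, Mmp12, Mmp19 and Timp1, and 0.424 between Mmp2 and Mmp14.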

How the data were processed

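For 20 iWAT libraries, prepared with a stranded mRNA kit, the authors deposited unnormalized read counts per gene, counted by featureCounts. The paper maps reads to rn6 with STAR. STAR 2.5.2, Subread 1.5.1 and the human build GRCh38 stand in the submitters' processing notes, although the table lists rat genes. Whether counting used strand is not given in the sources used here. From these counts, CPM used TMM-scaled library sizes and RPKM the gene lengths in the table. Genes with no read in 10 or more libraries were left out (14892 of 32545). edgeR 4.0.16 under R 4.3.3 fitted all 4 groups in 1 quasi-likelihood model, leaving 16 residual degrees of freedom, with p adjusted by Benjamini-Hochberg over 17653 genes. Log2 CPM for likeness used a prior count of 2. The rats are separate animals, libraries of 1 group differed by more than sampling noise (chi-square per gene 17.0 to 113 over 40 pairs), and no batch is given in the labels. Alternatives were other scalings and filters, DESeq2 1.42.0, limma-voom (limma 3.58.1), fewer samples, a replicate block and leaving out each rat. The model was first tested on simulated data. The members and the gene lists were chosen with earlier results of these data known. Named genes are all members, all synapsin hosts and, from each of the pathway lists other than the markers, the DEGs ranked first by adjusted p in Obese versus Lean or Cmpd 1 versus Food matched, at most 4 per contrast, and the 5 genes most like Mmp12, Mmp14, Timp1 and Timp4. A few further genes (Mmp1, Mmp11, Mmp28, Col4a1, Nid1, Col1a1, Col1a2, Col3a1, Dcn, Cep295nl and single markers) were chosen after their values were seen. A gene of the list on activation and clearance is not reported here, and the counts of that list leave it out.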

Additional observations from a re-analysis of the deposited data

Results flagged for a closer look

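A single library stood far from the other 4 of its group for 2 members. Mmp14 was at 175 CPM in Lean rat 2, where the nearest other Lean rat was at 219 CPM and the highest at 235 CPM, a gap of 0.728 of the whole range. Timp4 was at 66.4 CPM in the same rat, where the nearest was at 91.4 CPM and the highest at 98.9 CPM, a gap of 0.770 of the range. Both gaps are past the 95% limit of Dixon's test for 5 samples, which chance passes in about 1 of 20 groups, and 2 of 40 groups passed it. Lean rat 2 also held the most Acta1, at 1232 CPM, whose part in these values was not tested.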

How the results depend on the processing

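Of the 60 fold changes of members, 17 were called. Under the alternatives they gave 509 values, of which 507 were still called in the same direction and 2 were not, both of Mmp3 in Food matched versus Lean animals. The number of members called in Cmpd 1 versus Obese animals, 1 as reported, was 2 with a filter of at least 1 CPM in 5 libraries, with the groups compared alone, without Lean rats 1 and 2, without the 5 libraries with transcripts of other tissues and by limma-voom, the added gene being Mmp12, and 1 to 2 when 1 rat was left out. Food matched versus Obese animals gave 1 without the 5 libraries, again Mmp12. These libraries include Food matched rat 5, whose Mmp12 level of 55.5 CPM was the lowest of its group. Food matched versus Lean animals gave 8 with no fold threshold, 6 higher and 2 lower. The share of all genes called under each alternative is not given here, so these counts are not set against it. The cause was not tested. The filter of 1 CPM gave no value for Mmp3.

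Signs turned only for differences near 0 that were not called. With library sizes alone the log2 differences were 0.028 for Mmp2 and 0.038 for Mmp14 in Cmpd 1 versus Food matched animals and 0.001 for Mmp9 in Food matched versus Obese animals. For Mmp14 in Cmpd 1 versus Food matched animals they were 0.002 with the groups compared alone and 0.011 by limma-voom. Without Lean rats 1 and 2, Timp3 was at −0.073 in Cmpd 1 versus Lean animals. Without the 5 libraries the values were −0.027 for the same, 0.033 for Mmp2 and 0.075 for Mmp14 in Cmpd 1 versus Food matched, −0.038 for Mmp2 and 0.13 for Mmp9 in Food matched versus Obese, and −0.022 for Timp4 in Cmpd 1 versus Obese animals. Leaving out 1 rat gave −0.067 to 0.078 for Mmp14 and −0.069 to 0.047 for Mmp2 in Cmpd 1 versus Food matched, and −0.11 to 0.037 for Mmp14 in Obese versus Lean animals. In Food matched versus Obese animals it gave −0.048 to 0.064 for Mmp2, −0.137 to 0.071 for Mmp9 and −0.004 to 0.095 for Timp3. It gave −0.013 to 0.094 for Timp3 in Cmpd 1 versus Lean and −0.017 to 0.153 for Timp4 in Cmpd 1 versus Obese animals.

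Rats with the same number did not deviate together (correlation −0.102 to 0.145 over 30 pairs, against −0.182 to 0.218 for other numbers, with 3 of 20 libraries closest to their own number). No pairing by number was seen, but one with small effects or on few genes would not show in this check. With the replicate block the members called were 4 in Obese versus Lean, 3 in Cmpd 1 versus Food matched and 0 in Food matched versus Obese animals, and the difference for Mmp14 in Cmpd 1 versus Food matched animals was 0.009. The share of all genes called with the block is not given here, so these counts are not set against it. Depth limits Mmp3, with at most 31 reads in a library.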
